A study of Homo sapiens with 4 samples.

Results

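The genes described here are 10 receptor genes tied to differentiated or dedifferentiated states of melanoma: AXL, TYRO3, EGFR, ERBB3, MET, KIT, PDGFRB, FGFR1, IGF1R and NGFR. They were chosen by name, and every probe set (a group of short probes against 1 transcript) annotated to a member was taken, which gave 37 of the 54675 probe sets on the array and 10 of 19775 genes. Of these receptors 9 are tyrosine kinases. NGFR, the p75 neurotrophin receptor, belongs to the tumour necrosis factor receptor family and has no kinase, so the group is called receptor genes below.

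The study used M14, an established human melanoma line, made into 2 stable lines by transfection and drug selection followed by sorting for green fluorescence. The empty-vector line carried pIRES2 alone. The line labelled ARHGAP8 carried the same vector with FLAG-tagged ARHGAP8 in a variant that lacks an exon. Each line grew for 4 days either on collagen-coated plastic (2D) or embedded in growth factor-reduced basement membrane gel, Matrigel (3D), both with G418 and serum. The cultures thus differ in matrix as well as in dimension, and these cannot be told apart in any 3D against 2D difference below. RNA of each of the 4 combinations went onto 1 array, so a single ratio has no replicate error. Each plasmid was carried by 1 line, so an effect of ARHGAP8 and a difference between any separately selected lines cannot be told apart, and the labels do not say whether a line was 1 clone.

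Receptor tyrosine kinases bind a secreted or membrane-bound ligand outside the cell, pair up, and phosphorylate each other's tails, where adaptors start the MAPK and PI3K pathways. In melanoma, ERBB3, KIT and TYRO3 are known from pigmented, MITF-driven states. AXL, EGFR and PDGFRB are known from dedifferentiated states that tolerate BRAF inhibitors, and NGFR from a neural crest-like state.

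The tables gave 1 signal intensity per probe set, in arbitrary units. Signals under 72.3, the median of all values, were set to that floor before log2 was taken, so where a signal lay under it a ratio is only a bound. Between 48.4% and 51.9% of probe sets lay above it on each array. Of the pigment cell markers, MLANA, TYR, TYRP1, MITF, SOX10, S100B, GPNMB, RAB38, SLC45A2 and GPR143 were above the floor on all 4 arrays, while PMEL and OCA2 were below it on all 4 and TRPM1 was above it in 3D alone. PTPRC, CD3E and CD14 of leukocytes, EPCAM and CDH1 of epithelium, VWF and CDH5 of endothelium, and COL3A1 and LUM of fibroblasts were below it throughout. Other markers on these lists were above it on at least 1 array: 6 of 10 for fibroblasts (highest signal 253), 4 of 10 for epithelium (944, KRT18), 3 of 10 for endothelium (343, PECAM1) and 3 of 9 for leukocytes (299, LAPTM5). The 4 ARHGAP8 probe sets, all shared with a readthrough gene, read 4.02 to 14.8 and do not check the plasmid. The ARHGAP8 3D array stood apart in its ribosomal RNA control probe sets, with median signals of 626 for 18S and 1390 for 28S against 27.7 to 49.4 and 94.4 to 119 on the other arrays. Every ratio with that array carries this, and its part in any result was not tested.

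**Figure D1:**
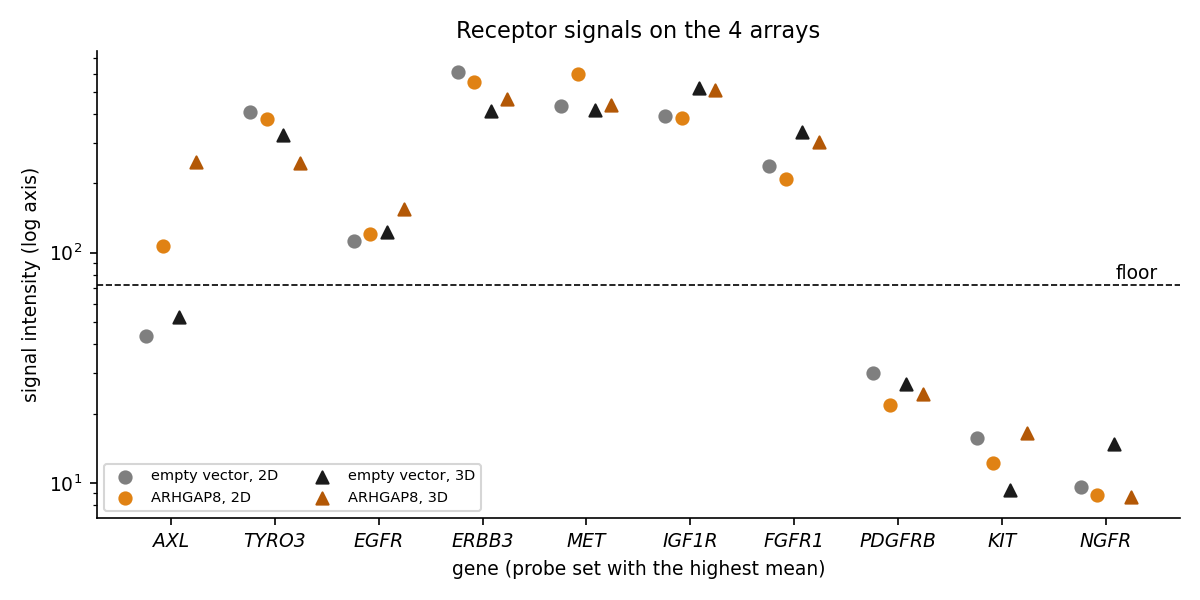
Signal intensity of the 10 receptor genes on the 4 arrays (log axis), each gene by its probe set with the highest mean; circles are 2D and triangles 3D, grey and black the empty-vector line, orange the line labelled ARHGAP8, and the dashed line is the floor of 72.3. AXL lies above the floor only in the line labelled ARHGAP8, and PDGFRB, KIT and NGFR lie below it on all 4 arrays.

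A pair of members, AXL and TYRO3, belong to the TAM family of receptors. By the probe set used for each gene they had the highest and the lowest averaged ratio between the lines, and their upstream sequences are shown for that reason. The low rank is within the error: TYRO3 lay at -0.25 ± 0.20 log2 (adjusted p 0.842 in limma) and FGFR1 at -0.16 ± 0.21. Single probe sets of other members lay lower, such as 213807_x_at of MET at -0.76 and 1563253_s_at of ERBB3 at -0.54. The RefSeq table of start sites (GRCh38.p14) held windows that were read for 7 of the 10 members, with ERBB3 and NGFR not among them and FGFR1 not used. The stretch of 250 bases before a start site is printed 5′ to 3′, with capitals for matches to any of 7 motifs. AXL has start sites at 2 positions, with windows at chr19:41218973-41219222 and chr19:41226505-41226754, both on the plus strand, and TYRO3 has windows at chr15:41558962-41559211, printed here, and chr15:41559722-41559971, not printed, also on the plus strand.
AXL start 1: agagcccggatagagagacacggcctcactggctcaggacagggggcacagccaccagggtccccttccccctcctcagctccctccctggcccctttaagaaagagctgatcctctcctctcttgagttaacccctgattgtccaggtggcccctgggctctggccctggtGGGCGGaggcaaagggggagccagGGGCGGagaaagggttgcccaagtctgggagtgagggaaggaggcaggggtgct
AXL start 2: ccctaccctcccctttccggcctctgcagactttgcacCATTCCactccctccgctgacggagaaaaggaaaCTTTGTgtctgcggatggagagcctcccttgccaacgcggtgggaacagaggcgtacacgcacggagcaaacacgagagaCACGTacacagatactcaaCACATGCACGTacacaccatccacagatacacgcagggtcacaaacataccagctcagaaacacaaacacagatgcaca
TYRO3 start 1: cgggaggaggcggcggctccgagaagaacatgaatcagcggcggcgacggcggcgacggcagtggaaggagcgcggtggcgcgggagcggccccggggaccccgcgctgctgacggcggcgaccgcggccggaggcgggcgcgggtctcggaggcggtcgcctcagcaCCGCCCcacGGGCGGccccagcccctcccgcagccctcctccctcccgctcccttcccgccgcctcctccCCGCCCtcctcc

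The motifs, searched on both strands, were GGGCGG (the GC box), TGAGTCA (the AP-1 site), GGAATG (a TEAD site), CACGTG (the canonical E-box), CATGTG (the E-box variant of MITF), ACGTG (the hypoxia core, held within the canonical E-box) and ACAAAG (a SOX site). The first AXL window held GC boxes 78 and 54 bases before the start site and no other match. The second AXL window held no GC box, but a TEAD match at 212 bases, a SOX match at 178, a variant E-box at 79 and hypoxia cores at 98 and 73. The first TYRO3 window held GC boxes at 82, 73 and 12 bases and no other match, and the second held no match to any of the 7 motifs. Among 35116 windows of the same length, 42.6% held a GC box, 11.9% the TEAD match, 13.7% the SOX match, 9.42% the variant E-box, 6.34% the canonical E-box, 18.5% the hypoxia core and 4.2% the AP-1 match. The AP-1 match occurred among the members in the second EGFR window alone, at 232 and 136 bases. These are matches of letters, and the array carries no reading of binding at them.

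AXL, which binds GAS6, was higher in the line labelled ARHGAP8 in both cultures. Here and below signals are given in the order empty-vector line, then line labelled ARHGAP8. By probe set 202686_s_at the 2D signals were 43.4 and 107, and the 3D signals 52.5 and 248. Both empty-vector values were below the floor and both others above it. Against the floor AXL was at least 1.48-fold higher in 2D and at least 3.43-fold higher in 3D. The latter was the only member at least 2-fold apart between the lines, in a comparison where 2.44% of 13239 tested genes were that far apart; in 2D no member was, against 0.461% of genes. In an additive model of plasmid and culture (limma, moderated by eBayes, Benjamini-Hochberg over all genes) AXL differed by 1.17 ± 0.27 log2 between the lines (moderated SE; 4 arrays), and with an adjusted p of 0.112 it did not pass. AXL entered that test only through the 2 arrays on which it was high. With no floor and 16 added to each signal, it passed at 1.5 log2 with an adjusted p of 0.0431; over the alternatives tried the adjusted p ran from 0.0431 to 0.996. Without the ARHGAP8 3D array the value is the 2D ratio alone, 0.57 log2. The other AXL probe set, 202685_s_at, read 17.7 to 30.8 and was below the floor on every array.

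Within the line labelled ARHGAP8, AXL was 2.31-fold higher in 3D than in 2D, where 3.77% of tested genes were at least 2-fold apart; in the empty-vector line both cultures were at the floor, so no ratio is given, and no member was 2-fold apart there (3.02% of genes). The genes whose centred log2 values over the 4 arrays lay nearest to those of AXL were IRF2BPL, STRIP2 and BCL10, at root mean square distances of 0.08, 0.09 and 0.14 log2. BCL10, an adaptor of NF-kappaB signalling, read 327 and 546 in 2D, against 400.2 and 1066 in 3D. IRF2BPL read 1022 and 1736 in 2D, against 1124 and 3560 in 3D. The distances use AXL after flooring. In all of these genes the ARHGAP8 3D array was the highest, which follows from choosing genes near AXL, and with 4 arrays the likeness is a description.

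TYRO3, the TAM receptor known from pigmented melanoma, followed the opposite order. Its signal (211432_s_at) was 411 and 382 in 2D, against 324 and 245 in 3D. Within each line the 3D signal was the lower, and within each culture the line labelled ARHGAP8 was the lower. The difference between the cultures was -0.49 ± 0.20 log2 (moderated SE; -0.34 and -0.64 in the lines), with an adjusted p of 0.145 in limma, and that between the lines was -0.25 ± 0.20 with an adjusted p of 0.842. Neither passed. The other TYRO3 probe set, 211431_s_at, read 36.0 to 70.1, below the floor.

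The ligands and the other receptor of the family were measured as well. PROS1, the gene of protein S, a ligand of TYRO3 and MERTK, read 590 and 578 in 2D, against 1137 and 1082 in 3D. It rose in 3D by 0.93 ± 0.16 log2, with an adjusted p of 0.000986 in limma and ratios of 0.95 and 0.91 in the lines. Both 3D arrays stood well above both 2D arrays while the lines lay close together. PROS1 passed under 7 of 9 alternatives with a test, failing with no filter on low values and with the mean of probe sets; over the alternatives its adjusted p ran from 0.000212 to 0.475. GAS6, the ligand of AXL, read 246 to 310 and differed by -0.10 log2 between the cultures (adjusted p 0.854). MERTK was at 75.9 and 80.7 in 2D, against 116 and 132 in 3D, close to the floor, and its difference of 0.66 ± 0.23 log2 between the cultures did not pass (adjusted p 0.0969).

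**Figure D2:**
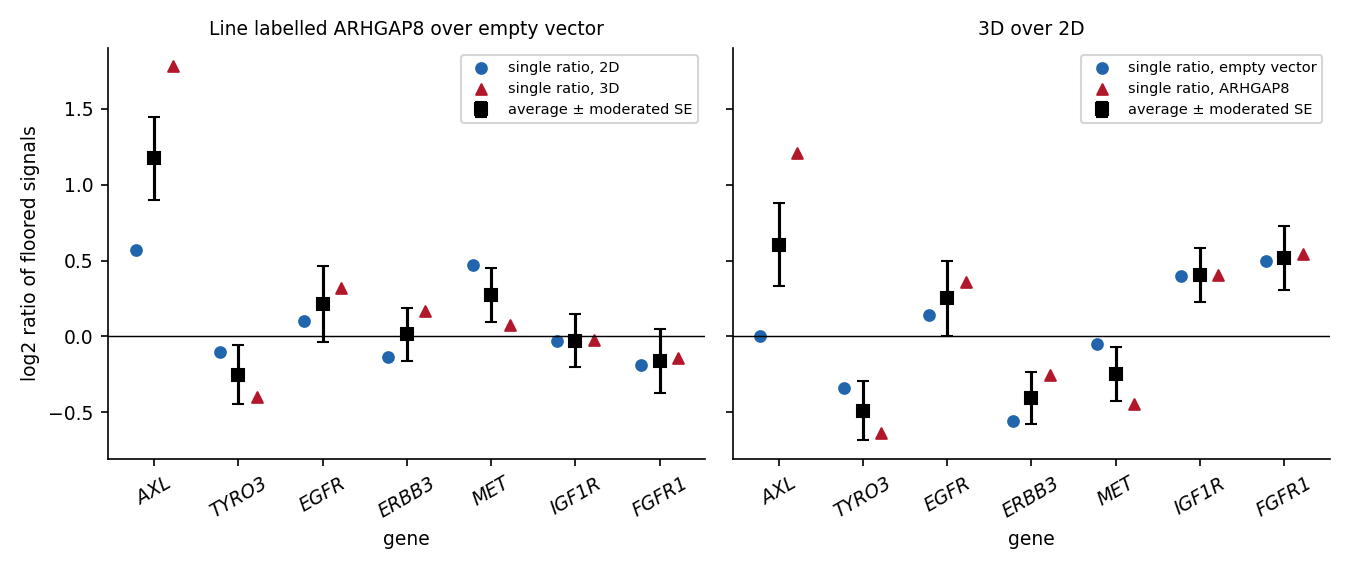
Log2 ratios of the 7 receptor genes above the floor on at least 2 arrays, between the lines (left) and between the cultures (right); black squares are averages from the additive fit with their moderated SE and coloured points the single ratios that make them up. AXL stands highest between the lines at 1.17, and between the cultures TYRO3 and ERBB3 lie lowest at -0.49 and -0.41.

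No member passed for the plasmid, where 0.128% of tested genes were called by limma at an adjusted p under 0.05, and none for the culture, where 6.99% were. At an unadjusted p under 0.05 in limma AXL alone stood among the 7 tested members for the plasmid, as did 8.14% of all genes. AXL entered that test only through the 2 arrays of the line labelled ARHGAP8, on which it was high. Its place in this count is therefore not independent of the filter. For the culture the members at an unadjusted p under 0.05 were AXL, ERBB3, FGFR1, IGF1R and TYRO3, against 21% of all genes. Each rests there on 1 chosen probe set. Of the other probe sets above the floor, 4 of 5 of FGFR1 and 1 of 3 of IGF1R had the opposite sign. AXL was at the floor on both empty-vector arrays, so its culture value comes from the line labelled ARHGAP8 alone. By probe set 6 of 23 were under 0.05, against 17.6% of all probe sets. A p that misses the threshold does not show that a level stayed the same.

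ERBB3, the heregulin receptor with a nearly inactive kinase that signals through its partners, had lower 3D signals by 2 of its 5 probe sets. Its probe set 226213_at read 610.2 and 554 in 2D, against 414 and 464 in 3D. The difference was -0.41 ± 0.17 log2 (adjusted p 0.176 in limma), from -0.56 and -0.26 in the lines. Another probe set, 202454_s_at, read 575 and 465 in 2D, against 347 and 246 in 3D, a difference of -0.82 ± 0.19. When every probe set was tested on its own, that was the only 1 of 23 tested member probe sets past the threshold, with an adjusted p of 0.0258 in limma; 3.49% of 28651 probe sets were called for the culture and 0% for the plasmid. At an unadjusted p under 0.05 stood 6 member probe sets for the culture and 4 for the plasmid, against 17.6% and 7.06% of all probe sets.

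The ERBB3 call depends on the processing. In fits chosen after the data were seen, it was lost after quantile normalization (adjusted p 0.0765), after cyclic loess (0.0789) and without an intensity trend (0.097), and kept in the other 3, from 0.0113 to 0.0474. Without the ARHGAP8 3D array the ratio was -0.73. The remaining ERBB3 probe sets did not follow. Probe set 1563253_s_at read 279 and 206 in 2D, against 286 and 183 in 3D, so there the line labelled ARHGAP8 was lower and the cultures lay together. Probe set 1563252_at went the other way between the lines, with 57.1 and 99.3 in 2D, against 71.2 and 94.4 in 3D, and 215638_at stayed under 49.5.

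Between the lines the 226213_at ratio of ERBB3 was -0.14 in 2D, against 0.17 in 3D. Its partner ERBB2 read 122 to 166 and differed by 0.05 log2 between the cultures (adjusted p 0.935). Of its ligands, NRG1 lay between 89.2 and 119.9 and NRG2 between 177 and 223, with culture differences of -0.02 and 0.11 log2, neither past the test.

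EGFR, the receptor of EGF and its relatives, was dim. Of its 9 probe sets 2 were above the floor on all 4 arrays, and 5 were below it on all. Its highest, 224999_at, read 112 and 120.4 in 2D, against 124 and 154 in 3D, differing by 0.21 ± 0.25 log2 between the lines and 0.25 ± 0.25 between the cultures, neither clearly larger than its moderated SE. The other, 211551_at, read 121 and 92.1 in 2D, against 126 and 109 in 3D, and had the lower value in the line labelled ARHGAP8. The probe sets thus did not share an order of the lines.

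Of the EGFR ligands HBEGF passed for the culture. This heparin-binding ligand read 240 and 308 in 2D, against 137 and 179 in 3D. It fell in 3D by 0.80 ± 0.23 log2 (adjusted p 0.0410 in limma), by like amounts in the lines, although it passed under only 2 of 9 alternatives (adjusted p 0.0167 to 0.82) and 1 of its 2 other probe sets above the floor went the opposite way. TGFA was higher in 3D by 0.57 log2 and did not pass (adjusted p 0.194). LRIG1, a membrane protein that sends ERBB receptors to degradation, fell in 3D by 0.89 ± 0.23 (adjusted p 0.0237), with ratios of -0.53 and -1.25 in the lines and 3 of 9 alternatives passed (0.00686 to 0.619). ERRFI1, the feedback inhibitor of EGFR, read 885 and 1269 in 2D, against 667 and 930.2 in 3D, and its 0.50 ± 0.16 between the lines did not pass (adjusted p 0.269).

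MET, the receptor of hepatocyte growth factor, was above the floor by all 4 of its probe sets. By 203510_at it read 432 and 598 in 2D, against 417 and 439 in 3D, with the ARHGAP8 2D array the highest. The difference between the lines was 0.27 ± 0.18 log2 (0.47 in 2D, against 0.07 in 3D; adjusted p 0.796) and that between the cultures -0.25 ± 0.18 (-0.05 and -0.45; adjusted p 0.463). The 3 other MET probe sets averaged below 0 between the lines, at -0.02, -0.12 and -0.76 log2. All 4 averaged lower in 3D, by 0.03 to 0.53. The largest difference between the lines was that of 213807_x_at, with 354 and 294 in 2D, against 344 and 145 in 3D. Its ratio of -1.25 in 3D rests on the ARHGAP8 3D array. The suffix x, carried by 213807_x_at and 211599_x_at, marks probe sets that may also bind other transcripts. The other pair of MET probe sets had narrow ranges, from 306 to 379 and from 114 to 127. HGF itself read 68.5 to 88.0, above the floor only in 2D.

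**Figure D3:**
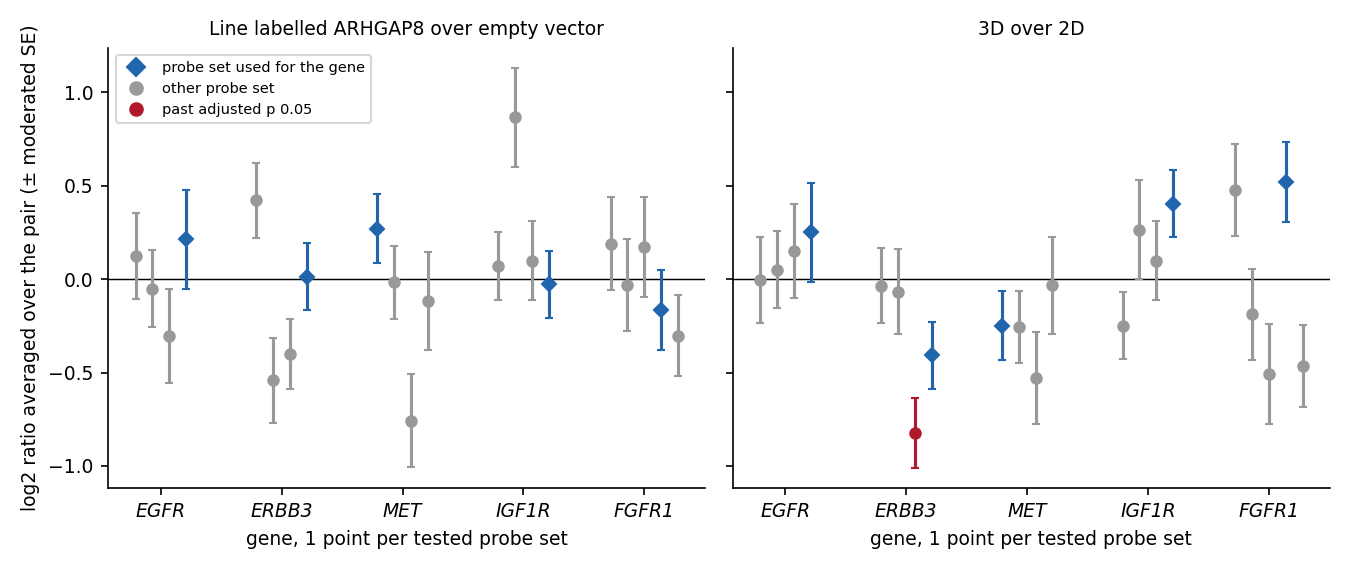
Averaged log2 ratios with moderated SE for each tested probe set of the 5 members with several, between the lines (left) and between the cultures (right); blue diamonds are the probe sets used for the gene, grey circles the others, and red marks an adjusted p under 0.05. Probe sets of 1 gene scatter on both sides of 0, as for FGFR1 between the cultures (from -0.51 to 0.52), and 1 ERBB3 probe set at -0.82 is past the threshold.

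IGF1R, the receptor of insulin-like growth factors, was higher in 3D by the probe set with the highest mean. Probe set 225330_at read 392 and 384 in 2D, against 518 and 509 in 3D, with the lines nearly equal in each culture. The difference of 0.40 ± 0.18 log2 (0.40 and 0.41 in the lines) had an adjusted p of 0.186 and did not pass. Probe set 203627_at had the cultures the other way, at 459 and 492 in 2D, against 394 and 405 in 3D. Probe set 203628_at separated the lines instead, at 116 and 193 in 2D, against 127 and 254 in 3D; its 0.87 ± 0.26 between the lines did not pass among all probe sets (adjusted p 0.473). Since 1 probe set gave a culture difference upward, 1 downward and 1 a difference between the lines, no single order holds for the gene.

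The genes around IGF1R gave a pair of calls. IRS1, the docking protein that carries the signal of IGF1R and the insulin receptor, read 108 and 139 in 2D, against 196 and 246 in 3D. It rose in 3D by 0.84 ± 0.25 log2 (adjusted p 0.0410 in limma; 3 of 9 alternatives passed, 0.0154 to 0.572), while its other probe set above the floor read -0.16. IGFBP7, a secreted IGF-binding protein, rose by 0.54 ± 0.16 (adjusted p 0.0475; 3 of 9 alternatives passed, 0.0327 to 0.493), from 1372 and 1341 to 2150.0 and 1803. IGFBP1, IGFBP2, IGFBP3 and IGFBP4 were below the floor on all arrays.

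FGFR1 was read by 7 probe sets that did not agree on the cultures. By 222164_at it was 238 and 209 in 2D, against 335 and 304 in 3D, higher in 3D by 0.52 ± 0.21 log2 (adjusted p 0.155), and 207937_x_at was higher as well, by 0.48. Against that, 215404_x_at was lower by 0.51, at 189 and 190 in 2D, against 119 and 150 in 3D, and 226705_at had -0.46. The mean over all probe sets of the gene was -0.027 log2. FGF2, a ligand of FGFR1, fell in 3D: it read 155 and 169 in 2D, against 12.2 and 78.7 in 3D, a fall by at least 1.10 log2 in the empty-vector line, where 3D was at the floor, and by 1.10 in the other (adjusted p 0.00702 in limma). It passed under 4 of 8 alternatives (0.0131 to 0.475), and its other probe set lay at -0.80. With no floor (-0.73) and with the floor at 36.1 (-0.86) the highest mean passed to that other probe set. Those failures therefore do not test the signals given here.

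KIT, the stem cell factor receptor of melanocytes, PDGFRB and NGFR had 1 probe set each, all below the floor. KIT read 9.35 to 16.5, NGFR 8.72 to 14.7 and PDGFRB 21.8 to 29.9 on the 4 arrays. Values under the floor have no order here, and in RNA from whole cultures fewer cells with a transcript and less of it per cell cannot be told apart. KITLG, the ligand of KIT, was read at 249 and 225 in 2D, against 119.8 and 189.7 in 3D, a difference of -0.65 that did not pass (adjusted p 0.138). Ligands of PDGFRB were above the floor, PDGFB at 146 to 211 and PDGFD at 102 to 151, and neither passed in either comparison.

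In the lists of other receptor pathway genes, calls were made for the culture and none for the plasmid. Over all 13239 tested genes, 2.83% rose and 4.15% fell in 3D; the counts for each list are descriptions to be read beside these shares. Of 17 tested ligands 1 rose and 2 fell in 3D, with a median of 0.03 log2 against 0.03 over all genes tested. Of 19 partner receptors and relatives 0 rose and 1 fell (median 0.13). That gene was SDC1, a heparan sulfate coreceptor, which read 899 and 805 in 2D, against 513 and 458 in 3D and fell by 0.81 ± 0.16 (adjusted p 0.00363 in limma; 7 of 9 alternatives passed, 0.00135 to 0.475). Of 20 other receptor tyrosine kinases 0 rose and 1 fell (median 0.13): EPHA2, an ephrin receptor, was at 114 and 204 in 2D and at the floor in 3D, a fall by at least 0.65 and 1.49 log2 in the lines (average adjusted p 0.0126). EPHA2 entered the test only through the 2D arrays, on which it was high.

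Of 26 adaptors and proximal enzymes 1 rose and 0 fell (median 0.14), and that was IRS1. Of 34 negative regulators 0 rose and 3 fell (median -0.05). Besides LRIG1 these were HGS, which sorts receptors at the endosome, by 0.77 ± 0.16 (adjusted p 0.00598; 6 of 9 alternatives, 0.00236 to 0.493), and SPRY4, a MAPK feedback inhibitor, by 0.65 ± 0.18 (adjusted p 0.0296; 2 of 9, 0.0157 to 0.632). Their fall was larger in the line labelled ARHGAP8, at -0.95 for each, than in the empty-vector line, at -0.59 and -0.35; that gap was not tested. Of 6 tested genes on the list of IGF-binding proteins, which also holds IGFALS and IGF2BP3, 1 rose and 0 fell (median 0.15).

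**Figure D4:**
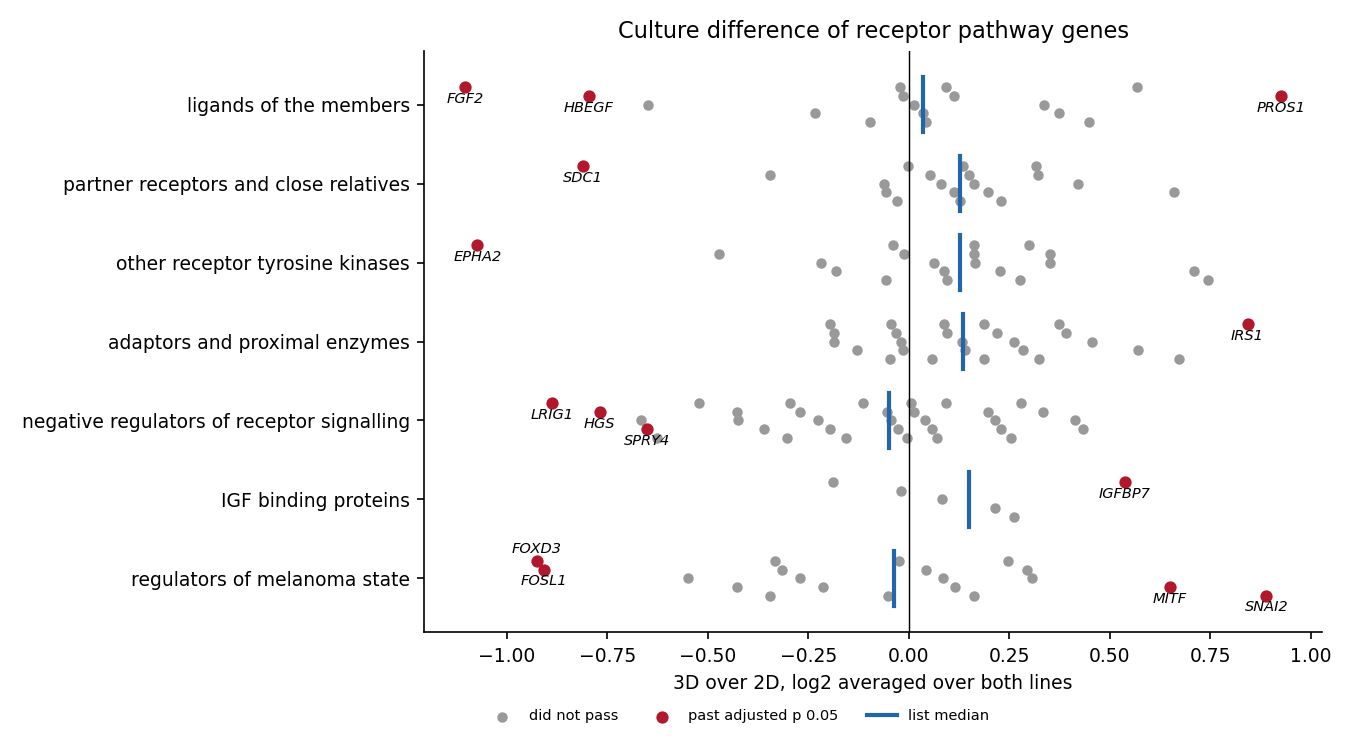
Difference between 3D and 2D (log2, averaged over the lines) for each tested gene of 7 receptor pathway lists; red points passed at an adjusted p under 0.05, grey points did not, and blue bars are list medians. Medians lie between -0.05 and 0.15, and 14 genes are past the threshold.

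Regulators of melanoma state stood beside these receptors. Of 20 tested, 2 rose and 2 fell in 3D, with a median of -0.04 log2, and none passed for the plasmid. SNAI2, a transcription factor of neural crest and melanocytes, rose by 0.89 ± 0.16 (adjusted p 0.00174; 7 of 9 alternatives, 0.000332 to 0.475). MITF, the master factor of pigment cells, rose by 0.65 ± 0.18 (0.33 and 0.97 in the lines; adjusted p 0.0277; 3 of 9, 0.0121 to 0.664). FOSL1, an AP-1 factor of dedifferentiated cells, fell by 0.91 ± 0.20 (-0.35 and -1.47; adjusted p 0.00786; 4 of 9, 0.00124 to 0.719), and FOXD3 fell by 0.93 ± 0.25 (adjusted p 0.0264; 5 of 9, 0.00821 to 0.572). SOX10, which is known to drive ERBB3, read 1979 and 1582 in 2D, against 1741 and 1114 in 3D, without passing (adjusted p 0.228 for the culture).

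MITF read 1904 and 1113 in 2D, against 2393 and 2180.0 in 3D. Within each culture MITF was lower, and AXL higher, in the line labelled ARHGAP8. Across the cultures, the array with the lowest MITF was the ARHGAP8 2D array, while the highest AXL signal was on the ARHGAP8 3D array. A relation between MITF and AXL was not tested. Of 11 tested pigment cell markers, MITF among them, 5 rose and 0 fell in 3D, where 2.83% and 4.15% of all genes did. TRPM1, among the 11, entered the test only through the 3D arrays, so it could not fall in any culture count given here. The summed signal of the whole pigment cell list was 12720 and 8958 in 2D, against 16270 and 14540 in 3D. For the plasmid 1 rose and 1 fell, while 0.128% of all tested genes were called in either direction. The median of the list between the lines was -0.39 log2. Of its 11 tested genes, 7 had an unadjusted p under 0.05 in limma for the plasmid, against 8.14% of all genes. Plasmid calls over all genes fell to 0 under several alternatives given below. Of 6 tested Schwann and neural crest markers, a list that includes ERBB3, 0 rose and 2 fell in 3D, NES by 0.85 log2 (adjusted p 0.00281 in limma) and FOXD3 as above. At an unadjusted p under 0.05 in limma for the culture stood 5 of these 6 and 8 of the 11 pigment cell markers, against 21% of all genes. The summed signal of the Schwann and neural crest list was 3603 and 3305 in 2D, against 2942 and 2722 in 3D. The part of either marker list in the receptor values was not tested. For ACTB, the 3' probe set divided by the 5' probe set, a sign of RNA quality, gave 1.10 and 1.05 in 2D, against 1.23 and 1.32 in 3D. For GAPDH the same ratio lay closer together, at 0.874 and 0.899 in 2D, against 0.901 and 0.925 in 3D. The part of RNA quality in the culture differences was not tested.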

How the data were processed

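Total RNA of 4 cultures of M14 transfectants was amplified in a pair of in vitro transcription rounds and hybridised to 1 Affymetrix array each, per the labels' protocols. The authors deposited 1 linear signal intensity per probe set and array, for which the submitters' processing notes name MAS5, with no version in the sources used here and no detection calls used. Each array was brought to the same trimmed mean (2% from each end), floored at 72.3 and log2 transformed. Probe sets with 1 gene symbol (41091; 1801 had several, 11721 none) named genes, with 41037 symbols updated through a RefSeq table (GRCh38.p14). A gene took its probe set with the highest mean and was tested if above the floor on at least 2 arrays (13239 genes).

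The additive model of plasmid and culture was fitted in limma 3.58.1 (R 4.3.3; eBayes with intensity trend, two-sided, Benjamini-Hochberg, threshold 0.05). It has 1 residual degree of freedom and prior degrees of freedom of 19.4, so each SE draws mostly on other genes; nothing shows separate cultures, and p-values cover array noise and any interaction. The number of arrays limits the precision. The fit was run on simulated data with no interaction of plasmid and culture and with changes only in genes well above the floor. That run does not speak to genes near the floor, such as AXL. All 10 members were named; of each other list, genes past the threshold, up to 6 per comparison by size, or the 2 largest differences where fewer than 2 passed, and ligands, partners or relatives beside their receptor; the uncalled ones are printed in part, and SOX10 was added after its values were seen. The 3 nearest patterns were sought for the member with the largest moderated statistic, AXL. Members and lists were chosen with earlier results of these data known.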

Additional observations from a re-analysis of the deposited data

Results flagged for a closer look

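The ratio of ERBB3 between the lines (226213_at) was lower in 2D, at -0.14 log2, and higher in 3D, at 0.17, a difference of 0.30 that was not tested and has no residual degree of freedom. Outside the genes compared, the control probe sets of ribosomal RNA were raised on the ARHGAP8 3D array, with median signals of 626 for 18S and 1390 for 28S. Groups of 1 array allow no check for outlying samples.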

How the results depend on the processing

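No paired analysis was possible because each group held 1 array and the labels gave no replicate numbers. No group had a replicate to leave out. Of 124 alternatives of member differences with a test, 118 kept direction and side of the threshold. Much of that count was fixed in advance and does not measure robustness. Several alternatives left the ratio of a member above the floor on all arrays as it was: a lower floor, another filter, no trend, and each probe set on its own. Its direction could not turn there, and no member had passed as reported. AXL came past the threshold with no floor, so 1 member was called for the plasmid there, and 1 member probe set, of ERBB3, was called for the culture when each probe set was tested on its own. With the mean of probe sets the plasmid difference turned to -0.0022 for EGFR, -0.10 for ERBB3, -0.15 for MET and 0.20 for IGF1R, and the culture difference of FGFR1 to -0.027. Without the ARHGAP8 3D array the plasmid ratio was -0.14 for ERBB3 and -0.48 for FGFRL1, and 0.57 for AXL; no test is possible on 3 arrays. The cause was not tested. Plasmid calls over all genes, 17 as reported, were 0 by limma under quantile (996 genes at an unadjusted p under 0.05) and cyclic loess scaling (1008), 0 with no filter (749), 0 with the mean of probe sets (893) and 0 over probe sets (2024), 1 with the floor at 36.1, 1 without an intensity trend and 61 when a gene had to be above the floor on every array. Culture calls, 925 as reported, were 557 and 570 after the other scalings, 425 without a trend, 37 with the mean of probe sets and 0 with no filter (1876 at an unadjusted p under 0.05). Genes at the floor on every array have no variance, so the fit with no filter rests on a distorted variance estimate. Without detection calls, ratios of genes with a signal at or near 72.3, AXL and EPHA2 among them, are limited by the floor.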

Other observations

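Receptor tyrosine kinases outside the families above differed between the lines without passing the test. DDR2, a collagen receptor, read 1223 and 1186 in 2D, against 1996 and 1064 in 3D, so the empty-vector 3D array stood alone, and its average was -0.48 log2 between the lines (adjusted p 0.434 in limma) but -0.04 in 2D alone. AATK read 101 and 48.9 in 2D, against 127 and 33.0 in 3D, above the floor only in the empty-vector line (adjusted p 0.370). NRP1, a coreceptor of several growth factors, was above the floor on the ARHGAP8 2D array alone, at 153 against 33.6 to 56.7 elsewhere, and was not tested. LMTK3 was higher in 3D by 0.74 log2 (adjusted p 0.0861), with 123 and 189.5 in 2D, against 281 and 232 in 3D. Of the state regulators, TWIST1 was higher in the line labelled ARHGAP8 by 0.60 and TFAP2A lower by 0.53, and neither passed (adjusted p 0.280 and 0.260).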
